A study of Mus musculus with 6 samples.

Results

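The immediate early genes Fos, Fosb, Junb, Egr1, Egr2, Arc, Npas4, Nr4a1, Ier2 and Dusp1 were followed across the forebrain libraries of a mouse diet study. They were chosen by name and all 10 were found among the 23282 entries of the count tables. The mice were wild-type C57BL/6J males of 8 to 10 weeks, and they received a normal chow diet (NCD) or a high-fat diet (HFD) with 60% of its energy as fat for 10 days. The olfactory bulbs and the cerebellum had been removed, and the RNA of 1 forebrain hemisphere was sequenced by QuantSeq, which reads transcripts near the 3′ end. Each diet had 3 libraries. The sources do not say whether a library stands for 1 mouse, so the p-values below measure the spread between these libraries.

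Immediate early genes are transcribed within minutes of a stimulus and need no new protein synthesis for it. In neurons the stimulus is synaptic activity, and calcium entry acts through the kinases that phosphorylate CREB and the ternary complex of SRF and its partners on promoters that are already poised. Their transcripts are short-lived, and a whole-forebrain sample therefore reads the recent activity of many cell populations at once. In such bulk RNA, fewer cells with a transcript and less transcript per cell cannot be told apart.

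The 10 genes lie on 8 chromosomes of GRCm38, in GENCODE vM21 positions. Fos is at chromosome 12, 85473890 to 85477273, Fosb at chromosome 7, 19302696 to 19310051, and Egr2 at chromosome 10, 67535475 to 67542188. Arc at 74669083 to 74672570 and Nr4a1 at 101254269 to 101274795 share chromosome 15. Ier2 at 84661331 to 84662852 and Junb at 84974484 to 84978718 share chromosome 8, with 311632 bases between them. Npas4 is at chromosome 19, 4984355 to 4990316, and Dusp1 at chromosome 17, 26505590 to 26562128. Exons of Junb overlap those of Prdx2, and exons of Dusp1 those of Ergic1, on the other strand in both cases. Whether the counting used strand is not given in the sources used here, so reads of these overlapping stretches cannot be told apart.

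Promoter windows of 7 of the 10 genes were read from RefSeq on GRCm38.p6, each from 250 bases before to 50 bases after the transcription start. No window was read for Egr1, Arc and Ier2, and sites outside the windows were not searched for any gene. The 4 windows below are shown because Fos and Npas4 stood furthest above the other libraries in NCD replicate 3, Dusp1 held the only full cAMP response element and Egr2 the CArG box, the site of SRF. They are the windows chr12:85473640-85473939 on the plus strand, chr19:4989922-4990221 on the minus strand, chr17:26508423-26508722 on the minus strand and chr10:67537619-67537918 on the plus strand. Capitals mark the motifs that were searched.
Fos: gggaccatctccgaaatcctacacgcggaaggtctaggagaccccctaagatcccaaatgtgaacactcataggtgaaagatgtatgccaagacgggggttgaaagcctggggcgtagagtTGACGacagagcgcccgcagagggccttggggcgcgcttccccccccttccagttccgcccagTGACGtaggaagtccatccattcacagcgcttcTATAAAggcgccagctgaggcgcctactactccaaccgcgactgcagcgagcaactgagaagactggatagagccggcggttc
Npas4: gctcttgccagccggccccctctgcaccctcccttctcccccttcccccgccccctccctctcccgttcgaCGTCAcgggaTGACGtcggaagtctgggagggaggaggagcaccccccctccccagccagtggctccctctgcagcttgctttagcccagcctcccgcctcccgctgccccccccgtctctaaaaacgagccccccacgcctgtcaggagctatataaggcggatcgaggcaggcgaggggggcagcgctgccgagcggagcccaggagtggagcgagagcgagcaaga
Dusp1: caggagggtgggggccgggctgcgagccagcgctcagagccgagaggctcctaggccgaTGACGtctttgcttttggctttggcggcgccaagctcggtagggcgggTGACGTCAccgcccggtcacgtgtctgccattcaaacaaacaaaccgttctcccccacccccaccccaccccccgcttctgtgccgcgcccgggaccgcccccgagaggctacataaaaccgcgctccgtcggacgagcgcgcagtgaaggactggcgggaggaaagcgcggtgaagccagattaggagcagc
Egr2: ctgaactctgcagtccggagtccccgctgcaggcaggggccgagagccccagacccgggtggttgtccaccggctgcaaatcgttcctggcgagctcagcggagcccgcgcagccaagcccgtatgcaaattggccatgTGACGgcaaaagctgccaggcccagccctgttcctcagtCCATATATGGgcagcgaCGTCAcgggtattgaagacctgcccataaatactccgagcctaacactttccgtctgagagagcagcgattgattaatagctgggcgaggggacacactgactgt

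The motifs were searched on both strands of each window. Egr2 has 5 windows in the table and each other gene of the 7 has 1, and a gene is counted where any of its windows holds the motif, while the shares over all genes are per window. TGACG, the core of the cAMP response element, which reads CGTCA on the other strand, was found in the windows of all 7 genes and in 20.8% of the 32851 windows of all genes. It was added to the search after the windows had been seen. The full element TGACGTCA contains this core and was found in 1 of 7 genes, Dusp1, and in 1.79% of all windows. In Dusp1 it began 143 bases before the start. The CArG box was found in 1 of 7, Egr2, and in 1.63% of all windows. It was in 4 of the 5 Egr2 windows and began 72 bases before the start in the window shown. The Egr2 windows that begin at 67537619, 67537620 and 67537680 overlap and hold the same site. TATAAA was found in 2 of 7, Fos and Junb, and in 13.6% of all windows. The AP-1 site TGACTCA, the sequence that Fos and Jun proteins bind together, was found in 0 of 7 and in 5.2% of all windows. These matches describe the letters of the windows only.

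The libraries held 6842785 to 9689372 counts, and 13771 genes passed the filter on low counts, with all 10 immediate early genes among them. Levels are given as CPM, read counts scaled to a common library total with the TMM factors of edgeR, and they compare libraries for 1 gene, not genes with each other. A count of 3, taken as the floor, was 0.316 to 0.432 CPM and covers counting error only. The forebrain label was set beside marker lists. The 12 neuronal markers summed to between 7248 and 7678 CPM in every library, which does not tell brain regions apart. The 12 cortical and hippocampal markers summed to between 909 and 1038 CPM and the 10 striatal markers to between 934 and 1033 CPM. The 8 midbrain markers were also detected, with sums between 11.7 and 48.8 CPM. NCD replicate 3 and HFD replicate 3 stood apart from the others of their diet. The chi-square per degree of freedom was 9.74 and 13.4 between NCD replicate 3 and the other NCD libraries, and 15 and 17.1 for HFD replicate 3, but 3.58 and 3.96 between the remaining libraries of each diet. HFD replicate 3 held 1265 CPM of the 7 pituitary hormone and regulator transcripts, which were between 2.08 and 8.95 CPM elsewhere. The 11 hypothalamic markers summed to 183 CPM in HFD replicate 3, against 243 to 298 CPM elsewhere.

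No immediate early gene passed the test between the diets after adjustment for all genes tested. In all of them but Fosb and Egr1 the difference of the means was smaller than the SD over the NCD libraries. Their fold changes went both ways, with 5 higher and 5 lower in HFD and a median log2 fold change of 0.0034, beside -0.0025 over all genes tested. In the quasi-likelihood test of edgeR, 0 of 10 had a Benjamini-Hochberg adjusted p under 0.05, as had 0.0% of the 13771 genes tested. By that test 507 of all genes had an unadjusted p under 0.05, and DESeq2 called 2 of all genes after adjustment, neither an immediate early gene. By a fold change of 1.5 with an unadjusted p under 0.05, 1 of the 10 genes was lower in HFD, Npas4, and 0 were higher. Of all genes 0.748% were lower and 0.53% higher by the same thresholds. The groups did not overlap in 1 gene, Fosb, which was higher in HFD, beside 4.31% of all genes higher and 4.49% lower without overlap.

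**Figure D1:**
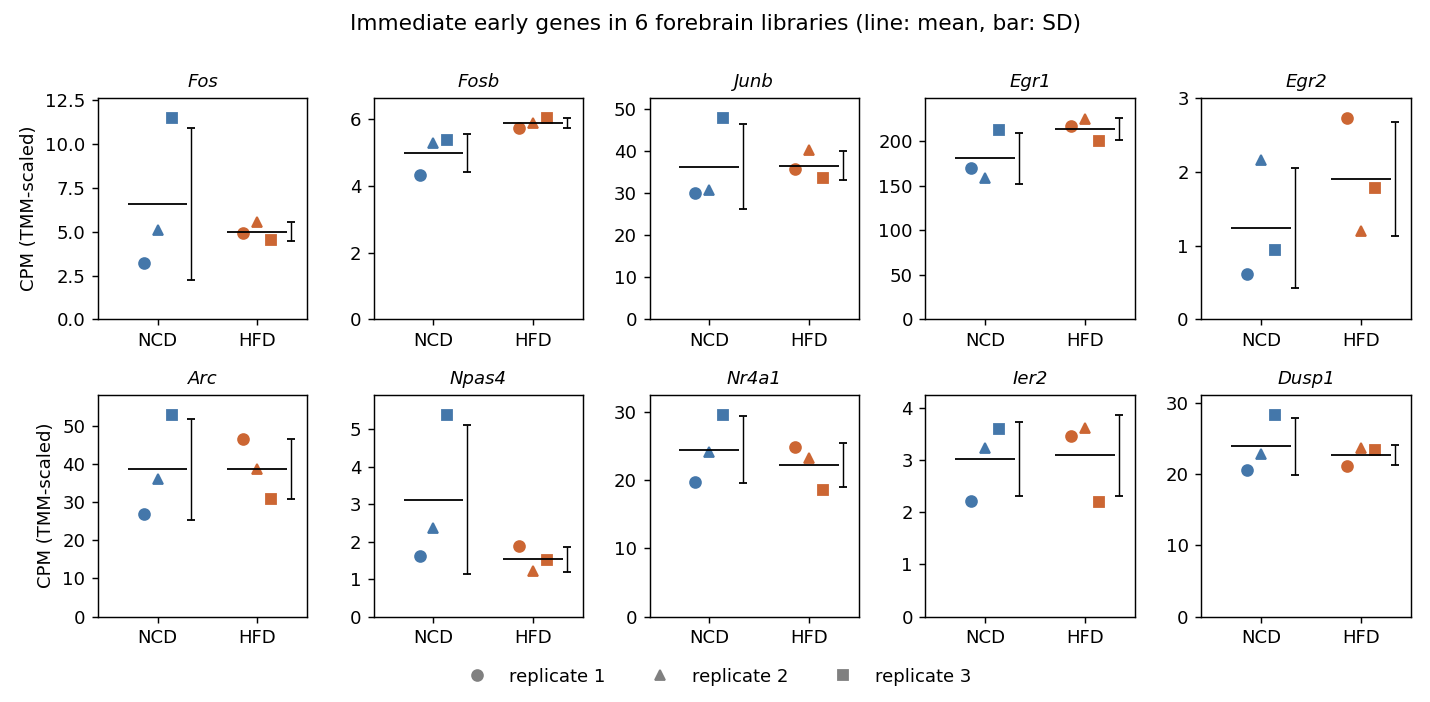
Level of each immediate early gene in CPM (y axis, from 0) in the NCD and HFD libraries, with marker shapes for replicates 1, 2 and 3, a line at the mean and a bar for the SD over 3 libraries. NCD replicate 3 (blue square) is the highest of the 6 libraries in 6 panels, and the HFD libraries lie closer together than the NCD libraries in 9 panels.

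Npas4, a transcription factor induced by calcium entry in neurons, was the gene past the 1.5-fold threshold. The NCD libraries held 13, 22 and 51 counts of it, given here and below in the order of replicates 1, 2 and 3, and the HFD libraries 13, 11 and 11. This was 1.60, 2.37 and 5.37 CPM in NCD against 1.87, 1.20 and 1.51 CPM in HFD. NCD replicate 3 was far above the rest, and the lowest NCD library was under the highest HFD library. The log2 fold change was -1.05 (SE 0.47, 95% interval -2.05 to -0.05), with an unadjusted p of 0.0399 and an adjusted p of 0.979 in edgeR, and the adjusted p lay between 0.839 and 1 over the alternatives. With quantile normalization and limma it was -0.61, at an unadjusted p of 0.078 in limma. Leaving out NCD replicate 3 reduced the edgeR value to -0.40, at an unadjusted p of 0.422 in edgeR. Leaving out each library in turn, Npas4 was past both thresholds in 3 of 6 fits and was also not past them without HFD replicate 2 (p of 0.128 in edgeR) or HFD replicate 3 (p of 0.0755 in edgeR).

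The Fos family genes encode subunits of the AP-1 transcription factor. Fos had 26, 47 and 109 counts under NCD and 34, 51 and 33 under HFD. The levels were 3.21, 5.07 and 11.5 CPM in NCD and 4.89, 5.57 and 4.54 CPM in HFD. NCD therefore held both the highest and the lowest Fos level, and the HFD libraries lay between them. The mean was 6.59 ± 4.34 CPM in NCD and 5.0 ± 0.526 CPM in HFD (SD, n = 3 each), with a log2 fold change of -0.40 (SE 0.37, 95% interval -1.18 to 0.37) and an adjusted p of 0.979 in edgeR. It turned to 0.27 (SE 0.32) without NCD replicate 3, and without NCD replicate 1 it reached -0.72 at an unadjusted p of 0.0454 in edgeR, past both thresholds.

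Fosb, whose truncated product is known to accumulate in chronically stimulated neurons, showed the opposite arrangement. Its levels of 4.32, 5.29 and 5.37 CPM in NCD all lay below the 5.76, 5.90 and 6.05 CPM in HFD. The mean was 4.99 ± 0.584 CPM in NCD and 5.90 ± 0.146 CPM in HFD (SD, n = 3 each). The log2 fold change was 0.24 (SE 0.25, 95% interval -0.30 to 0.77), with an adjusted p of 0.979 in edgeR. The HFD libraries varied by 2.47% of their mean, less than the 14.7% that counting alone gives at 40 to 54 counts, so the closeness of the HFD values is finer than these counts can resolve. The counts of this gene do not tell the full-length from the truncated transcript.

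Junb encodes a partner of the Fos proteins in AP-1. Its levels were 30.1, 30.9 and 47.9 CPM in NCD and 35.7, 40.3 and 33.5 CPM in HFD. The first 2 NCD libraries lay below all HFD libraries and NCD replicate 3 above them all. The log2 fold change was 0.0084 (SE 0.17, 95% interval -0.34 to 0.36) with all libraries and 0.26 (SE 0.14) without NCD replicate 3, with an unadjusted p of 0.0826 in edgeR in the second case.

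Egr1 and Egr2 encode zinc finger transcription factors, of which Egr1 on chromosome 18 is expressed in the forebrain at rest. Egr1 had 170.2, 159 and 213 CPM in NCD and 217, 225 and 200.5 CPM in HFD. All HFD libraries were above NCD replicates 1 and 2, and NCD replicate 3 was within the HFD range. Its log2 fold change was 0.24 (SE 0.12, 95% interval -0.0068 to 0.49), with an unadjusted p of 0.0559 and an adjusted p of 0.979 in edgeR. Without NCD replicate 3 it was 0.38 (SE 0.11), with an unadjusted p of 0.00454 and an adjusted p of 0.999 in edgeR, below the fold threshold of 1.5. Egr2 was near the floor, with 5, 20 and 9 counts in NCD and 19, 11 and 13 in HFD. These were 0.617, 2.16 and 0.948 CPM in NCD and 2.74, 1.20 and 1.79 CPM in HFD, and the groups overlapped. Its log2 fold change of 0.58 had an SE of 0.53 and a 95% interval from -0.53 to 1.69, so that it takes in differences of either direction.

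Arc encodes a protein of dendrites and synapses that takes part in the removal of AMPA receptors, and its mRNA is carried into dendrites. Its levels were 26.8, 36.1 and 52.9 CPM in NCD and 46.5, 38.7 and 30.9 CPM in HFD. The mean was 38.6 ± 13.2 CPM in NCD and 38.7 ± 7.78 CPM in HFD (SD, n = 3 each). The difference was far smaller than the spread of either diet, with a log2 fold change of -0.0016 (SE 0.20, 95% interval -0.42 to 0.42) and an adjusted p of 0.999 in edgeR. Without NCD replicate 3 the log2 fold change was 0.29 (SE 0.18).

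Nr4a1 encodes an orphan nuclear receptor and had 19.7, 24.1 and 29.5 CPM in NCD and 24.8, 23.3 and 18.6 CPM in HFD. The highest level was that of NCD replicate 3 and the lowest that of HFD replicate 3, and the other libraries of both diets overlapped. Its log2 fold change was -0.14 (SE 0.17, 95% interval -0.49 to 0.21). Ier2, a small nuclear protein, had 18, 30 and 34 counts in NCD and 24, 33 and 16 in HFD. This corresponded to 2.22, 3.24 and 3.58 CPM in NCD and 3.45, 3.61 and 2.2 CPM in HFD, with a log2 fold change of 0.03 (SE 0.35, 95% interval -0.72 to 0.78). Dusp1 encodes a phosphatase that switches off MAP kinases and so limits the signal that induces these genes. Its levels were 20.6, 22.9 and 28.3 CPM in NCD and 21.2, 23.7 and 23.4 CPM in HFD. The log2 fold change was -0.07 (SE 0.15, 95% interval -0.39 to 0.24), and the HFD levels lay inside the NCD range.

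**Figure D2:**
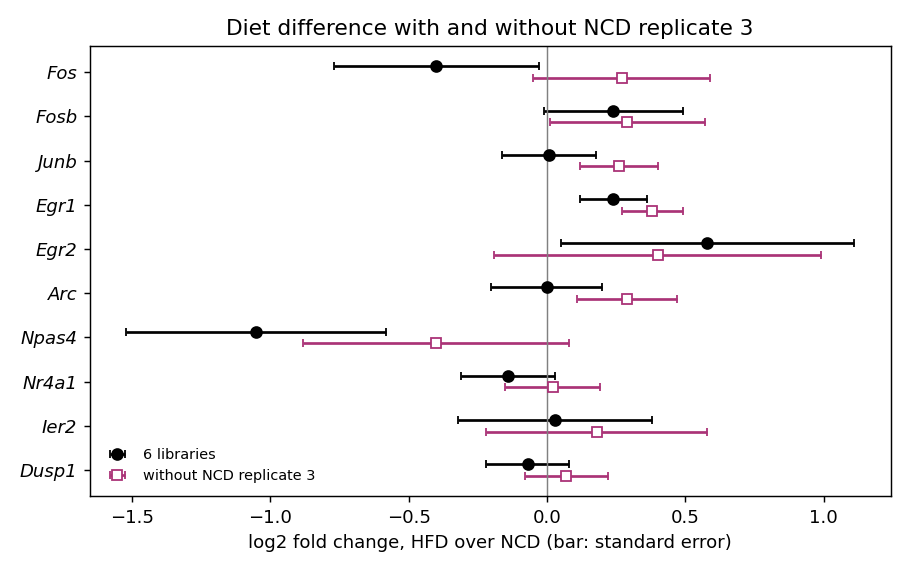
Log2 fold change of HFD against NCD for each immediate early gene (x axis), with all 6 libraries and without NCD replicate 3. The bars are standard errors derived from the F statistic of the edgeR test, and they are narrower than the 95% intervals given in the text. With all libraries 5 genes lie on each side of 0, and without NCD replicate 3 the estimate is above 0 for 9 genes, all but Npas4.

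Library NCD replicate 3 carried the highest level of Fos, Junb, Arc, Npas4, Nr4a1 and Dusp1, that is of 6 of the 10 genes, while it was the highest library for 21.4% of all genes tested. It was above both other NCD libraries in 9 of 10 genes, all but Egr2, beside 36.9% of all genes. The ratio of NCD replicate 3 to the mean of the other NCD libraries was 2.77 for Fos and 2.70 for Npas4. It was 1.68 for Arc and 1.57 for Junb, between 1.29 and 1.35 for Nr4a1, Ier2, Dusp1 and Egr1, 1.12 for Fosb and 0.683 for Egr2. NCD replicate 1 stood at the other end, as the lowest library for 6 of the 10 genes (Fos, Fosb, Junb, Egr2, Arc and Dusp1) beside 13.1% of all genes. The median log2 difference of the 10 genes from the mean of the other 5 libraries was -0.37 in NCD replicate 1, -0.03 in NCD replicate 2 and 0.38 in NCD replicate 3. In HFD replicates 1, 2 and 3 it was 0.11, 0.06 and -0.20. The same median over all genes tested was between 0.00 and 0.01 in each library. With NCD replicate 3 left out, 9 of the 10 genes were higher in HFD and their median log2 fold change was 0.27, beside -0.0007 over all genes tested. This library was left out for its high levels, which by itself lowers the NCD means, and leaving out NCD replicate 1 instead gave a median of -0.15, with medians between -0.15 and 0.27 over the 6 libraries left out singly. Without NCD replicate 3, 0 of the 10 genes had an adjusted p under 0.05 in edgeR, and only Egr1 had an unadjusted p under 0.05.

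Other transcripts also stood out in NCD replicate 3. The 8 midbrain markers summed to 48.8 CPM there, against 28.4 and 44.1 CPM in the other NCD libraries and 11.7 to 32.5 CPM in HFD. Their median difference on the log2 scale was -1.46 in HFD replicate 3, 0.84 in NCD replicate 2 and 1.09 in NCD replicate 3. The 8 ependymal markers summed to 39.8 CPM there against 30.6 and 32.0 CPM in the other NCD libraries and 23.0 to 30.9 CPM in HFD, and the 8 choroid plexus markers to 1859 CPM against 1498 to 1709 CPM elsewhere. The choroid plexus markers also had their lowest level in NCD replicate 1 in 62.5% of genes. Their median difference was -0.32 in NCD replicate 1 and 0.18 in NCD replicate 3. No gene of these lists was at 0 in all libraries. The median difference of the neuronal markers in NCD replicate 3 was 0.01 and that of the cortical and hippocampal markers -0.01. The part of the midbrain, ependymal and choroid plexus transcripts in the levels of the immediate early genes was not tested. NCD replicate 3 was also the library with the most counts, for which CPM corrects. In the paper's read quality reports its reads had the highest share of G and C bases, followed by those of HFD replicate 3. Whether this bears on the levels of the immediate early genes was not tested.

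The spread of the immediate early genes lay mainly in the NCD group. Over the libraries of a diet, the SD of log2 CPM had a median of 0.355 in NCD and 0.179 in HFD, while the medians over all genes tested were 0.165 and 0.189. The SD was lower in HFD for 9 of the 10 genes, all but Ier2, beside 44.8% of all genes. To set genes of few counts against their like, each gene was ranked among genes within 0.5 log2 units of its mean level. Arc was at percentile 99.1 of the within-diet SD, Fos at 98.1 and Junb at 92.5. Nr4a1 stood at 81.4, Npas4 at 78.0, Egr2 at 72.5 and Egr1 at 70.8, whereas Dusp1 at 49.1, Ier2 at 38.1 and Fosb at 3.63 were not more variable than most genes of their level. Within NCD alone Fos reached percentile 99.6, Arc 99.5 and Junb 98.1. Within HFD alone Arc was at 88.2 and Fos at 18.1. The coefficient of variation of Fos in NCD was 65.9% against 12.8% from counting, that of Arc 34.3% against 5.34% and that of Npas4 63.9% against 18.7%. The spread of these 3 genes in NCD was thus beyond counting error, and NCD replicate 3 held the top value in each. In HFD the coefficient of variation was 10.5% for Fos, 21.9% for Npas4 and 6.09% for Dusp1. Counting alone gives 15.9%, 29.3% and 7.5%, so that, as for Fosb, their closeness in HFD is finer than the counts can resolve. For Junb, Egr1, Egr2, Arc, Nr4a1 and Ier2 the HFD value was above that of counting.

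Most pairs of the immediate early genes were positively related over the libraries, although none passed the test after adjustment. Pearson's r of log2 CPM was positive in 39 of the 45 pairs, with a median of 0.57, while the median over all pairs of genes tested was near 0. It was over 0.8 in 22.2% of the pairs and in 4.18% of all pairs of genes, and without NCD replicate 3 in 11.1% and 7.11%. For deviations from the diet means the median was 0.73, and it was 0.50 without NCD replicate 3 and 0.33 without NCD replicate 1. The 45 pairs share the same 6 libraries and their depth. In exact two-sided permutation tests over all orders of the 6 libraries, 8 pairs had an unadjusted p under 0.05 for Pearson's r and 2 for Spearman's rho, and 0 of the 45 did after Benjamini-Hochberg adjustment, where the smallest adjusted p was 0.212 for r and 0.375 for rho.

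**Figure D3:**
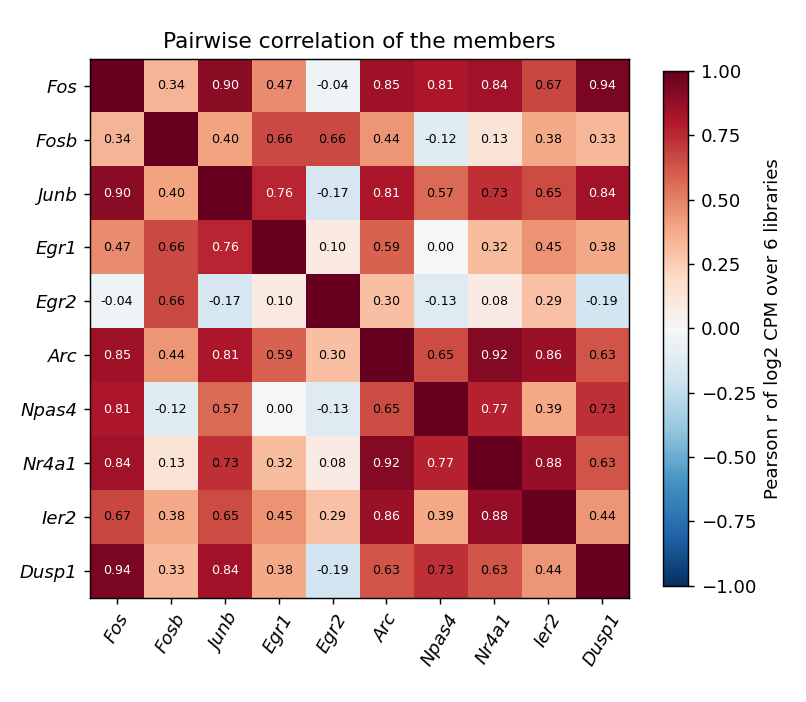
Pearson's r of log2 CPM over the 6 libraries for each pair of immediate early genes, with the value in each cell and the colour scale from -1 to 1. The values among Fos, Junb, Arc, Nr4a1 and Dusp1 lie between 0.63 and 0.94, and the row of Egr2 is the palest, with 5 of 9 positive values.

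Fos and Dusp1 had an r of 0.94 (exact permutation p of 0.0125) and a rho of 0.83 (exact permutation p of 0.0583), and r fell to 0.27 without NCD replicates 1 and 3. Arc and Nr4a1 had an r of 0.92 (exact permutation p of 0.0194) and a rho of 0.89 (exact permutation p of 0.0333), and r was 0.84 without the 2 libraries farthest from the median of Arc. Fos and Npas4, the genes that were furthest raised in NCD replicate 3, had an r of 0.81 and a rho of 0.37, and r was -0.02 without that library, so their relation rests on it. Among the 10 genes the median r with the other 9 was highest for Fos (0.81), Junb (0.73) and Nr4a1 (0.73), and it was lowest for Egr2 (0.08), the gene with the fewest counts.

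Some genes outside the set followed the mean profile of the 10 immediate early genes over the 6 libraries. By Pearson's r with that profile the nearest 10 were Bcl2l11, Tekt4, Papd5, Hacd2, Phka1, Hbegf, Gm10865, 9130221H12Rik, Asap2 and Serpina9, with r from 0.973 to 0.993. The 10 were picked by this r from the 13761 other genes, of which 103, or 0.748%, had an r over 0.9. Tekt4, Gm10865 and Serpina9 were near the floor. They had 0.37, 0.617 and 0.864 CPM in NCD replicate 1 and 2.11, 2.32 and 2.42 CPM in NCD replicate 3. Bcl2l11, which encodes the apoptosis factor Bim, had 4.44, 6.69 and 11.5 CPM in NCD and 8.06, 7.32 and 6.32 CPM in HFD. Hbegf, which encodes a ligand of the EGF receptor, had 14.1, 16.7 and 23.9 CPM in NCD and 18.9, 19.3 and 17.3 CPM in HFD. In both, as in the mean profile, NCD replicate 1 was lowest and NCD replicate 3 highest. Both were picked by their r with that profile, so this shared order is no separate result.

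The wider programme of activity-regulated genes was described with further lists. Of 21 other rapidly induced transcription factors 19 were tested, with 10 higher and 9 lower in HFD and a median log2 fold change of 0.0047, and 0 were past the 1.5-fold threshold with an unadjusted p under 0.05. NCD replicate 3 was above both other NCD libraries in 63.2% of them, between the 90.0% of the 10 immediate early genes and the 36.9% of all genes. Of the 30 tested rapidly induced effector genes 22 were higher and 8 lower, with a median of 0.0951, and of the 23 slower activity-regulated genes 11 were higher and 12 lower, with a median of -0.0025. NCD replicate 3 was above both other NCD libraries in 36.7% of the effectors and 17.4% of the slower genes. In either list 0 genes were past 1.5-fold with an unadjusted p under 0.05. Without NCD replicate 3 the medians were 0.04, 0.14 and 0.0046 for the 3 lists.

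Egr3, a relative of Egr1 that is itself induced by activity, had 76.9, 65.3 and 60.9 CPM in NCD and 81.9, 81.1 and 81.5 CPM in HFD. Its groups did not overlap and NCD replicate 3 was its lowest library, whereas Egr1 was highest there among the NCD libraries. The log2 fold change was 0.27 (SE 0.11), with an unadjusted p of 0.0303 and an adjusted p of 0.979 in edgeR, and without NCD replicate 3 the unadjusted p was 0.113 in edgeR. Homer1, the gene of a scaffold protein of synapses with an activity-induced short form, had 136, 135.6 and 125 CPM in NCD and 148, 141 and 184 CPM in HFD. Its log2 fold change was 0.26 (SE 0.12), with an unadjusted p of 0.0444 and an adjusted p of 0.979 in edgeR. Without HFD replicate 3, its highest library, it was reduced to 0.13 at an unadjusted p of 0.17 in edgeR. The other most abundant genes of the 3 lists did not pass the test, with log2 fold changes of 0.0047 for Tsc22d1, -0.09 for Jund, -0.02 for Nr4a2, 0.09 for Rgs2, -0.03 for Midn, -0.03 for Rgs4, -0.10 for Scg2 and 0.08 for Syt4.

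**Figure D4:**
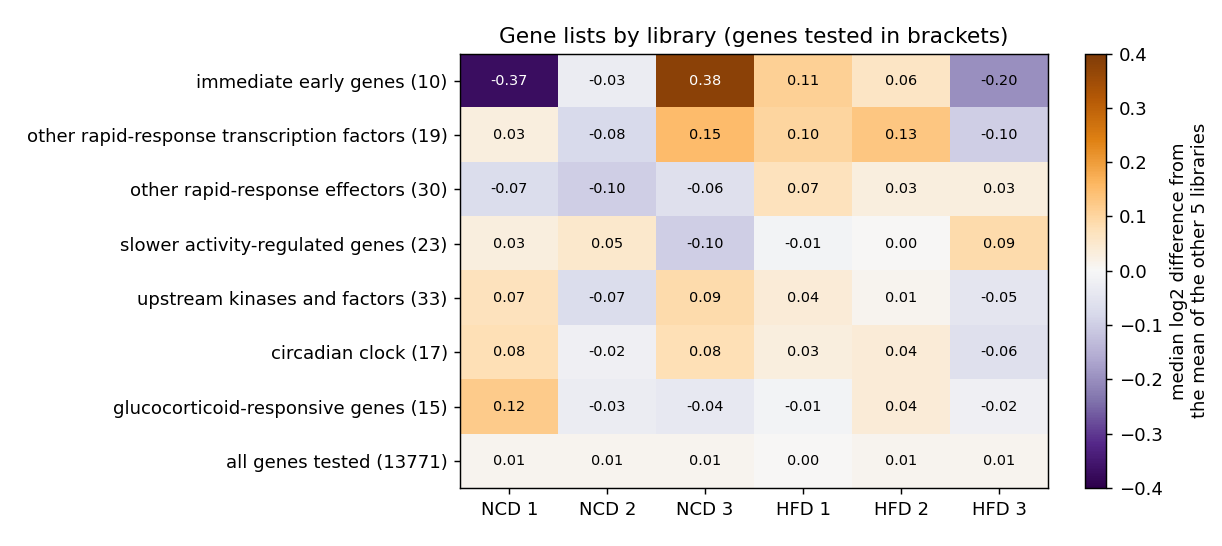
Median log2 difference of each gene list in each library (columns) from the mean of the other 5 libraries, with the number of genes tested in brackets and a colour scale from -0.4 to 0.4. The immediate early genes range from -0.37 in NCD replicate 1 to 0.38 in NCD replicate 3, and the other 6 lists drawn stay between -0.10 and 0.15. The lists of cell type and region markers are not drawn, although Penk and Rorb belong both to them and to lists drawn here.

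Upstream of these genes, 33 kinases, cofactors and transcription factors that act on their promoters were tested, with 11 higher and 22 lower in HFD and a median log2 fold change of -0.0757, or -0.02 without NCD replicate 3. Crtc3, a coactivator of CREB, was the only gene of this list with an unadjusted p under 0.05. It had 19.0, 18.9 and 19.5 CPM in NCD and 15.8, 14.0 and 10.4 CPM in HFD, so that the groups did not overlap. Its log2 fold change was -0.51 (SE 0.17), short of 1.5-fold, with an unadjusted p of 0.00893 and an adjusted p of 0.979 in edgeR, and the unadjusted p was under 0.05 in 6 of 6 fits that left out 1 library. Of the 17 genes of the circadian clock 9 were higher and 8 lower, and of the 15 glucocorticoid-responsive genes 7 were higher and 8 lower, with medians of 0.0118 and -0.0328. Among the latter 1 gene was past 1.5-fold with an unadjusted p under 0.05, Sult1a1, a sulfotransferase. It had 7.78, 4.75 and 4.53 CPM in NCD and 7.77, 8.52 and 9.49 CPM in HFD, a log2 fold change of 0.61 (SE 0.25) with an unadjusted p of 0.0293 and an adjusted p of 0.979 in edgeR, and the unadjusted p stayed under 0.05 in 2 of 6 fits with 1 library left out.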

How the data were processed

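RNA of forebrain hemispheres from 3 NCD and 3 HFD libraries was sequenced with QuantSeq on single-end reads of 75 bases. The authors trimmed adapters, aligned reads to mm10 with Bowtie2, counted unique and multiple alignments with Bedtools and deposited raw read counts per gene. Their later quantile normalization is not in these counts, and tool versions, annotation and use of strand are not given in the sources used here. Groups came from the diet in the sample labels.

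For the deposited counts, edgeR 4.0.16 in R 4.3.3 was used (filterByExpr, minimum count 10, minimum total 15, TMM, glmQLFit and glmQLFTest, Benjamini-Hochberg adjustment), tested on simulated data. Log2 CPM used a prior count of 2. Alternatives used DESeq2 1.42.0, limma 3.58.1, other scalings and filters, a block for replicate number and the omission of single libraries. Tables were handled and plots drawn in Python 3.11.15, pandas 2.3.3, scipy 1.17.1 and matplotlib 3.10.9.

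The members and lists were chosen with earlier results of these data known. Named genes are the 10 members, list genes with an unadjusted p under 0.05 (at most 5 a list), the 3 most abundant of each of the 3 activity-regulated lists, and the 10 genes most like the mean profile.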

Additional observations from a re-analysis of the deposited data

How the results depend on the processing

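The log2 fold changes of Fos, Junb, Arc, Nr4a1, Ier2 and Dusp1 were small against their errors and changed sign under some settings. Junb was -0.0053 with library size alone, and Arc was 0.0027 with DESeq2, 0.05 with quantile normalization, 0.0015 with upper-quartile scaling and 0.03 with the replicate block. With single libraries left out the range was -0.72 to 0.27 for Fos, -0.11 to 0.26 for Junb, -0.20 to 0.29 for Arc, -0.27 to 0.02 for Nr4a1, -0.14 to 0.22 for Ier2 and -0.17 to 0.07 for Dusp1. The number of the 10 genes past 1.5-fold with an unadjusted p under 0.05, which was 1, was 0 with quantile normalization (Npas4 at -0.61), 0 with the replicate block (Npas4 at -0.93) and 0 to 2 with 1 library left out. Over all genes that number was 176, and 396 without a filter on low counts. The number with an adjusted p under 0.05, which was 0 in edgeR with 507 genes at an unadjusted p under 0.05, was 2 with DESeq2, 23 without the filter and 0 to 3 with 1 library left out. The median pairwise r of 0.57 was 0.73 for deviations from the diet means and 0.33 to 0.65 with 1 library left out. The median log2 fold change of the 10 genes ran from -0.15 to 0.27 with 1 library left out. The causes of these changes were not tested. Same-numbered libraries of the diets had correlations of their deviations from the diet means of -0.0295, 0.0515 and -0.0574. Such values show no shared shift over all genes, but they cannot tell whether the numbers pair the libraries. The replicate block gave 155 genes past both thresholds. Egr2, Npas4 and Ier2 had 5 to 51 counts a library, and counting alone gives 29.7%, 18.7% and 19.1% of the mean as their coefficient of variation in NCD, below the 65.3%, 63.9% and 23.5% measured.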
